A study of Saccharomyces cerevisiae with 24 samples.

Results

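Yeast cells labelled prp22-1 were compared with cells of the strain SS330 after a shift from 23C to 37C. The comparison rests on 10 of the 24 two-colour arrays of the series, 5 of prp22-1 at 37C and 5 of SS330 at 37C. Each strain was sampled 5, 15, 30, 60 and 120 min after the shift, and the arrays were paired by time after each had been centred on its median. The other arrays used were 1 of prp22-1 and 1 of SS330 at 23C (time 0, before the shift) and those of prp17-1 and prp17 null, which share in the estimate of the spread. The labels give the strains by these names and state no further genotype, mating type, medium or number of cultures.

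PRP22 encodes an RNA helicase of the DEAH family. It acts after the second catalytic step of splicing, when it releases the finished mRNA from the spliceosome. Most yeast genes have no intron, and those that do have usually 1, near the 5′ end; genes for ribosomal proteins make up a large share of them. Whether an array probe reads spliced RNA, unspliced RNA or both is not given in the sources used here, so a lower value is less hybridising RNA of that gene of any form. In bulk samples such as these, fewer cells with an RNA and less of it per cell cannot be told apart.

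Each array carried total RNA in the Cy5 channel and yeast genomic DNA in the Cy3 channel. The values are log ratios, taken here as log2. The labels do not state which channel is on top, and a higher value was read as more RNA because the median of 31 heat shock genes was 2.12 in prp22-1 and 2.24 in SS330 at 5 min, against 0.35 in prp22-1 and 0.38 in SS330 at time 0. Of 6350 probes, the prp22-1 array at 15 min held a value for 77.3%, and the other 11 arrays of both strains for 92.7% to 98.4%. There is 1 array per strain and time, so the p-values rest on the spread between time points of 1 course per strain, and strain and culture cannot be told apart. Values given in the text are centred log2 ratios in the order 5, 15, 30, 60 and 120 min, with missing ones given as no value. A difference is prp22-1 minus SS330 on that log2 scale, with its standard error (SE). "Rose" and "fell" say that prp22-1 was called higher or lower than SS330, not that a level changed over time. Calls were made with limma at a Benjamini-Hochberg adjusted p under 0.05. Called genes beyond the rule for naming, which include ACT1, COF1, SEC14, SAC6 and ARP2, were picked after their values were seen.

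Of 5487 tested probes 191 were called (3.48%), 99 higher in prp22-1 (1.8%) and 92 lower (1.68%). At an unadjusted p under 0.05 in limma 512 of the 5487 were higher and 477 lower. The unadjusted counts of the lists below are to be read beside these. Of the 86 named probes that fell, 38 belonged to genes listed as having an intron, and 3 more (ECM9, PBA1 and TMA20) to genes whose length from start to stop is not a multiple of 3. Of the 47 named probes that rose, 0 did. Among all 4871 named probes tested, 182 belonged to the intron lists and 23 to other genes with such a length. A further 52 of the rises were probes with no gene name, and 44 of these follow the last named probe in the order of the array. The values of the strains at 37C did not overlap for 72 of the 99 higher and 65 of the 92 lower. The calls rest on these same values, so the counts are no separate support, and the share over all tested probes is not given here. Without the SS330 array at 60 min the total was 100, and without the SS330 array at 120 min 127.

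Genes with an intron that do not encode ribosomal proteins had lower values in prp22-1 at each time at 37C, by their median. Of 99 tested probes of such genes 37 fell (37.4%) and 0 rose (in limma, 1 was higher and 60 lower at an unadjusted p under 0.05), and 85 had a difference below 0. Over all 5487 tested probes 512 were higher and 477 lower at that p, and 2888 had a difference below 0. For the 99 the median difference was -0.53, beside -0.02 over all tested probes. It was -0.02 at time 0, then -0.28, -0.59, -0.58, -0.53 and -0.47 in the order of time. For the 37 that fell, the medians by time were -0.07 at time 0 and then -0.72, -1.17, -1.18, -1.17 and -1.09. In 31 of the 37 the values of the strains at 37C did not overlap, which is no separate support because the 37 were called from these values. The count was 23, 20 and 24 without the SS330 array at 30, 60 or 120 min, and 17 with the 3 early times alone.

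**Figure D1:**
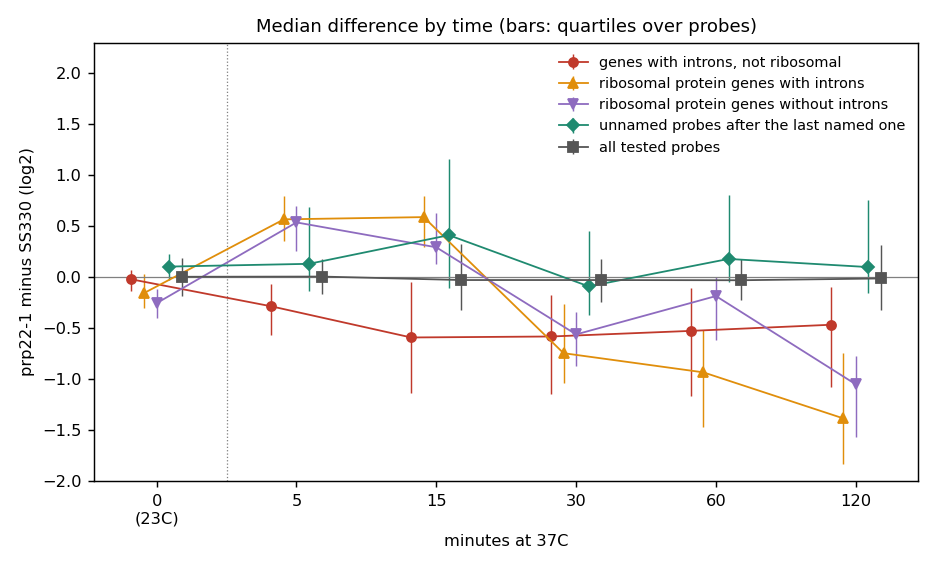
Median difference between prp22-1 and SS330 (log2, vertical axis) at each time (horizontal axis, 0 is 23C) for 5 groups of probes; bars span the quartiles over probes, not error. Non-ribosomal genes with introns stayed between -0.28 and -0.59 at 37C, whereas both groups of ribosomal protein genes were above 0 at 5 and 15 min and below 0 from 30 min on.

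Genes of the secretory pathway with an intron were among those that fell. SAR1, which encodes the GTPase that starts COPII vesicle formation at the endoplasmic reticulum, had values of -1.28, -2.35, -2.10, -2.02 and -2.15 in prp22-1, against -0.34, -0.41, -0.30, -0.07 and -0.20 in SS330. All 5 values of prp22-1 lay below all 5 of SS330, although the strains had been alike at time 0 (-0.28 in prp22-1 and -0.23 in SS330). The difference of -1.72 ± 0.34 (SE, n = 5 arrays each, adjusted p = 0.00777) was the largest fall among named genes with values on all 10 arrays. ERD2, the receptor that returns luminal proteins to the endoplasmic reticulum, had -0.60, -1.25, -1.28, -1.17 and -1.34 in prp22-1, against 0.13, 0.05, 0.31, 0.25 and 0.06 in SS330, and differed by -1.29 ± 0.15 (SE, adjusted p = 0.000156). SEC17, which encodes alpha-SNAP and helps to take apart SNARE complexes, had -0.75, -0.32, -1.17, -1.43 and -1.21 in prp22-1, against 0.55, 0.59, -0.08, -0.18 and -0.12 in SS330. Its difference was -1.13 ± 0.14 (SE, adjusted p = 0.000248), and neither it nor ERD2 overlapped between the strains. YOP1, which shapes tubular endoplasmic reticulum membrane, fell by 1.50 on the log2 scale. SEC27, a COPI coat subunit gene, fell by 1.24 and SEC14, which encodes a phospholipid transfer protein of the Golgi, by 1.17. SNC1, a vesicle SNARE gene, fell by 0.74, YIP3 by 0.78 and APS3, for the small subunit of the AP-3 adaptor, by 0.41.

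Genes of the actin and microtubule cytoskeleton with an intron were also among them, with TUB3 as an exception. ACT1, the single actin gene of yeast, had -0.44, -1.78, -1.95, -1.58 and -1.77 in prp22-1, against -0.13, -0.57, -0.42, -0.41 and -0.40 in SS330. The 5 min value of prp22-1 lay within the range of SS330 and the later 4 below it, and the mean difference was -1.12 ± 0.27 (SE, adjusted p = 0.0299). PFY1, which encodes the actin monomer-binding profilin, had -0.65, -1.30, -1.62, -1.70 and -1.66 in prp22-1, against 0.00, 0.18, 0.07, -0.01 and 0.21 in SS330, and the strains did not overlap (-1.48 ± 0.30, SE, adjusted p = 0.00897). COF1, for the filament-severing cofilin, fell by 1.46. SAC6, for the filament-bundling fimbrin, fell by 1.16 and ARP2, for a subunit of the Arp2/3 nucleating complex, by 0.93. TUB1, the main alpha-tubulin gene, had -1.33, -2.61, -2.04, -1.97 and -2.02 in prp22-1, against -0.49, -0.62, -0.73, -0.48 and -0.43 in SS330 (-1.44 ± 0.34, SE, adjusted p = 0.0249). Its near copy TUB3 also has an intron and had -0.19, -0.87, -0.42, -0.12 and -0.21 in prp22-1, against -0.18, -0.42, -0.38, -0.33 and -0.18 in SS330, with a difference of -0.07 ± 0.21 (SE, adjusted p = 0.906). The strains overlapped for TUB3 and did not for TUB1. How far probes of such near copies read each other's RNA was not tested, since probe sequences were not used here.

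**Figure D2:**
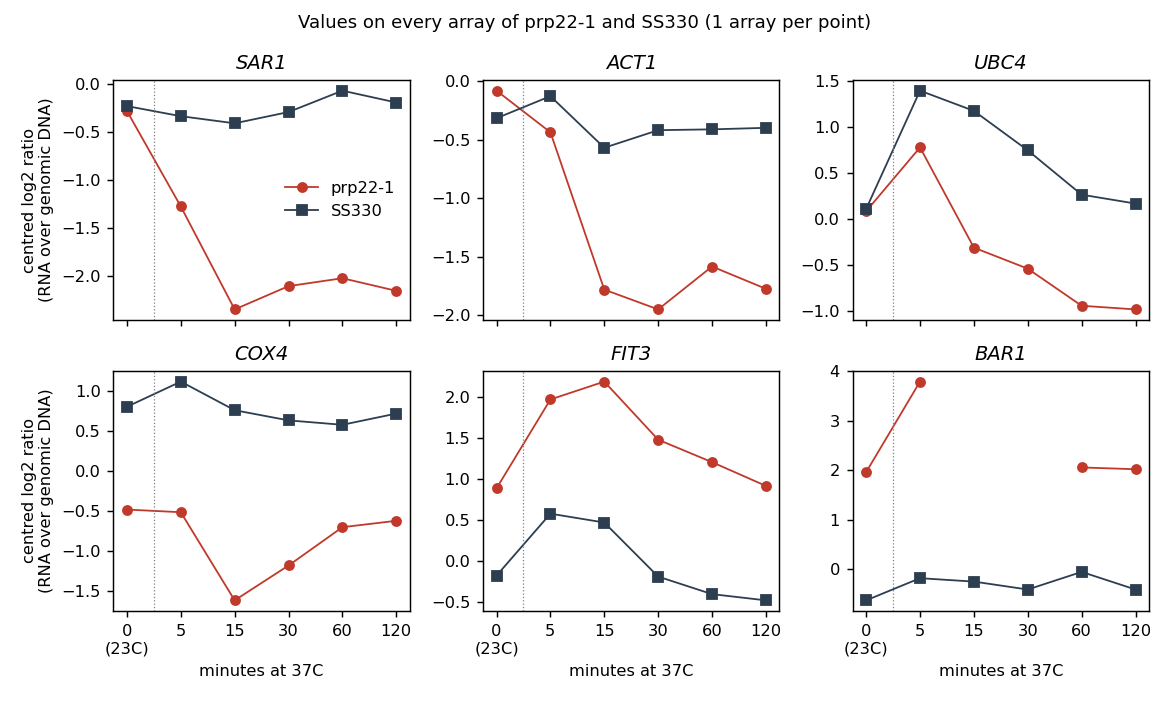
Centred log2 ratio (vertical axis) on each array of prp22-1 (circles) and SS330 (squares) by time (horizontal axis) for 6 genes; each point is 1 array, a missing point is a missing value, and the dotted line marks the shift. SAR1, ACT1 and UBC4 differed by -0.05, 0.23 and -0.03 at time 0 and by more at 37C, whereas COX4, FIT3 and BAR1 already differed by -1.28, 1.06 and 2.59.

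In the list of secretory pathway and cytoskeleton genes with introns, 15 of 22 tested fell (68.2%), all 22 differences were below 0, and the median was -1.02. A list of genes of the same kinds without introns, made after these values were seen, gave 0 calls in limma among 57 tested. Of those 7 were higher and 2 lower at an unadjusted p under 0.05, and the median difference was 0.08. Over all 5487 tested probes 1.68% were called lower, and 2888 had a difference below 0, as given above. The list with introns was itself chosen with earlier results of these data known. The difference between the lists was not tested.

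**Figure D3:**
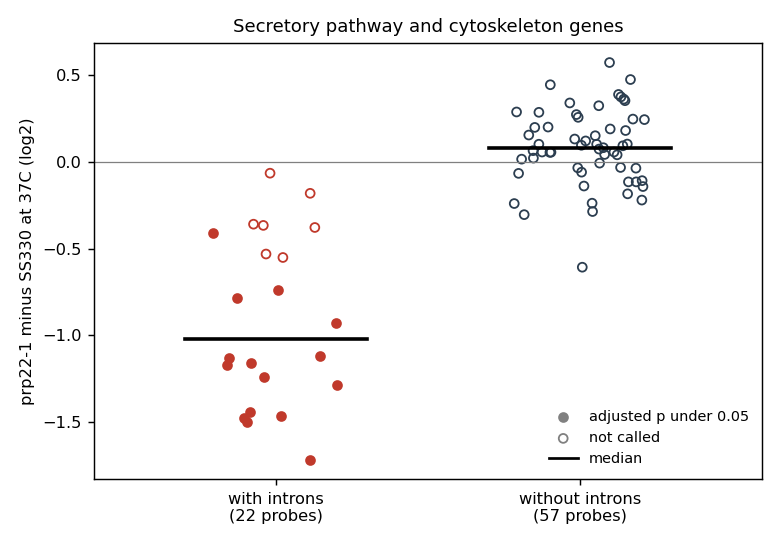
Difference between prp22-1 and SS330 at 37C (log2, vertical axis) for secretory pathway and cytoskeleton genes with introns (left) and without (right); each point is 1 probe, filled where the adjusted p is under 0.05, and the bar is the median. The medians are -1.02 with introns and 0.08 without, and only the left column holds called probes (15 of 22). Both lists were chosen with results of these data known.

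Of 8 tested ubiquitin and related genes with an intron 2 fell (25%), beside 1.68% over all probes. UBC4, which encodes a ubiquitin-conjugating enzyme for short-lived and misfolded proteins, had 0.09 in prp22-1 and 0.11 in SS330 at time 0. At 37C it had 0.78, -0.31, -0.54, -0.94 and -0.98 in prp22-1, against 1.40, 1.18, 0.75, 0.27 and 0.17 in SS330. Both strains were highest at 5 min, and the values overlapped over the course although prp22-1 was lower at each time, by -1.15 ± 0.14 on average (SE, adjusted p = 0.000248). UBC9, the gene of the SUMO-conjugating enzyme, fell by 1.20 (adjusted p = 0.00683). No other member of the list passed. At an unadjusted p under 0.05 in limma 6 of the 8 were lower and 0 higher, 7 had a difference below 0, and the median was -0.67. PRE3, a proteasome subunit gene, had -0.998 ± 0.30 (SE, adjusted p = 0.0855). The 23 tested ubiquitin genes without introns, again listed after the values were seen, gave 0 calls in limma, with 1 higher and 0 lower at an unadjusted p under 0.05, and a median of 0.09. The ubiquitin list with introns was also chosen with earlier results of these data known. The difference between these lists was not tested.

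Single genes with introns fell in other processes. CPT1, which encodes the cholinephosphotransferase of phosphatidylcholine synthesis, had -0.96, -1.18, -1.48, -1.34 and -1.56 in prp22-1, against 0.35, 0.39, 0.20, 0.18 and 0.17 in SS330. The strains did not overlap at 37C, time 0 has no value for both, and the adjusted p of 5.85e-05 (-1.56 ± 0.16, SE) was the smallest among the falls of these genes. PMI40, for the mannose-6-phosphate isomerase that feeds glycosylation, fell by 1.42 with a wide spread (SE 0.37, adjusted p = 0.0395). EFB1, for the exchange factor of translation elongation factor 1, fell by 1.10 and RFA2, for a subunit of the single-strand DNA-binding protein RPA, by 1.10. RPO26, for a subunit shared by the 3 nuclear RNA polymerases, fell by 0.85, with values of -1.38, -1.04, -1.43, -1.57 and -1.72 in prp22-1, against -1.30, -1.07, -0.19, -0.20 and -0.14 in SS330. The first 2 times of RPO26 were alike and the last 3 far apart. QCR10 of respiratory complex III fell by 0.92 and the cyclin-dependent kinase gene PHO85 by 0.69. KIN28, for the kinase of the general transcription factor TFIIH, fell by 0.78 and TAF14, for a subunit of several transcription and chromatin complexes, by 0.54. IWR1, which acts in nuclear import of RNA polymerase II, fell by 0.65. TAN1, needed for a cytidine acetylation in tRNA, fell by 1.01 and POP8, of RNase P and RNase MRP, by 0.80. OM14, for a mitochondrial outer membrane protein, fell by 1.30. The actin-binding protein gene LSB3 has a pair of probes, which fell by 1.13 and 0.95. DTD1, for the deacylase of D-aminoacyl tRNA, fell by 0.73 and EFM5, for a methyltransferase of elongation factor 1, by 0.64. TMA20, outside the intron list but with an interrupted frame by its length, fell by 1.43 (adjusted p = 0.004).

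Genes of RNA processing itself mostly did not pass. Of 69 spliceosome genes tested 1 rose and 1 fell, with 6 higher and 4 lower at an unadjusted p under 0.05 in limma. Their median difference was below 0.01 in size. STO1, for the large subunit of the nuclear cap-binding complex, has an intron and had -1.22, -1.23, -1.10, -0.99 and -0.79 in prp22-1, against -0.15, -0.14, -0.01, 0.00 and -0.12 in SS330 (-0.98 ± 0.12, SE, adjusted p = 0.000305). The 5 values of prp22-1 lay below all of SS330. AAR2, a U5 snRNP assembly factor gene, rose by 0.51 (adjusted p = 0.0345). LSM2, an Lsm ring gene with an intron, fell by 0.81, and YRA1, an mRNA export adaptor gene with an intron, by 0.96. They were the only calls among 8 tested Lsm genes and 34 tested genes of RNA export and decay. YRA1 had no value at 15 and 30 min in prp22-1. LSM2 lost its call without 6 of the 10 arrays at 37C in turn and YRA1 without 2. PRP22 itself had -0.07, 0.50, -0.48, -0.13 and 0.02 in prp22-1, against -0.03, -0.10, -0.05, -0.40 and 0.01 in SS330, and its difference of 0.08 ± 0.17 (SE, adjusted p = 0.845) did not pass. CDC40, the gene of Prp17, had -0.26 ± 0.16 (SE, adjusted p = 0.421). The labels name no deletion of PRP22, so its level does not check the strain.

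The median difference of both ribosomal protein lists was below 0 at time 0, above 0 at 5 and 15 min and below 0 from 30 min on, and single genes departed from it. In 83 tested genes with introns the median level was -1.06, -1.27, -1.30, -1.30 and -1.63 in prp22-1, against -1.62, -1.73, -0.70, -0.40 and -0.35 in SS330. SS330 returned towards its starting level of -0.13 after the first 15 min, and prp22-1, which had started at -0.28, did not. The 39 tested without introns had medians of -1.21, -1.82, -1.54, -0.85 and -1.64 in prp22-1, against -1.76, -2.24, -1.005, -0.50 and -0.43 in SS330. The averages over time passed for few of them. Of the 83 with introns 1 fell (RPL32, -1.34 ± 0.35, SE, adjusted p = 0.0426) and 0 rose, with 14 lower and 2 higher at an unadjusted p under 0.05 in limma. Of the 39 without introns 0 were called in limma, with 6 lower and 3 higher at an unadjusted p under 0.05. RPS29B, placed in neither list because its intron status is uncertain here, fell by 1.35 (adjusted p = 0.0374). RPS8A, without an intron, had -1.47, -2.98, -2.92, -3.56 and -4.11 in prp22-1, against -2.01, -2.49, -1.26, -0.42 and -0.38 in SS330 (-1.70 ± 0.50, SE, adjusted p = 0.0768). At 15 min RPS8A (-0.49), RPL32 (-0.40) and RPS29B (-0.40) were below 0, unlike the medians of the lists. Paired copies of ribosomal protein genes are nearly identical, so a probe may read both.

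Early against late times was tested as the difference at 60 and 120 min minus that at 5, 15 and 30 min. Of 5484 probes 1 was called (0.0182%), and 517 had an unadjusted p under 0.05. That probe is MET30, which encodes an F-box protein of a ubiquitin ligase that holds back sulfur amino acid genes. It had -0.28, -0.31, -0.29, 0.90 and 1.07 in prp22-1, against -0.15, -0.08, -0.16, -0.14 and -0.28 in SS330, so that only the 2 late values of prp22-1 stood above the rest. The change was 1.36 ± 0.19 (SE, adjusted p = 0.0387), and its average over all 5 times did not pass (0.38, adjusted p = 0.373). For non-ribosomal genes with introns the median change between early and late was -0.05, for ribosomal protein genes with introns -1.26 and for those without -0.78, beside 0.00 over all probes. The count rests on single arrays: it was 116 without the SS330 array at 30 min, 8 without the SS330 array at 60 min, 6 without the prp22-1 array at 60 min and 0 without any 1 of the other 7. With the early times alone 59 probes were called between the strains, 20 higher and 39 lower, and with the late times alone 275.

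Of the heat shock and general stress lists only YRO2 passed. The median of 31 heat shock genes was 2.12, 1.87, 0.89, 0.95 and 1.10 in prp22-1, against 2.24, 2.07, 0.82, 0.52 and 0.09 in SS330. Both strains had the early peak, and at 120 min the median level was still raised in prp22-1 and back below its start in SS330. Of the 31, 0 were called in limma, with 6 higher and 0 lower at an unadjusted p under 0.05, and the median difference was 0.30. HSP42, for a small chaperone, had 5.25, no value, 2.54, 2.42 and 3.68 in prp22-1, against 4.98, 4.59, 0.82, 1.45 and 0.71 in SS330 (1.31 ± 0.48, SE, adjusted p = 0.162). SPI1, a cell wall protein gene of the general stress list, had 1.48 ± 0.41 (SE, adjusted p = 0.064), and YRO2 was the 1 of 42 in that list to pass (0.94 ± 0.23, SE, adjusted p = 0.0345). YRO2 had a difference of 0.64 at time 0 and 1.11 at 5 min. The median difference of the 42 was 0.02 at 60 min and 0.50 at 120 min. Histone genes gave 0 calls among 10, and 0 at an unadjusted p under 0.05, with a median difference of -0.31. That average covers a change over time, with median differences of 0.305, -0.001, 0.07, -0.51 and -1.08, and -0.07 at time 0. The median change between early and late was -0.94.

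**Figure D4:**
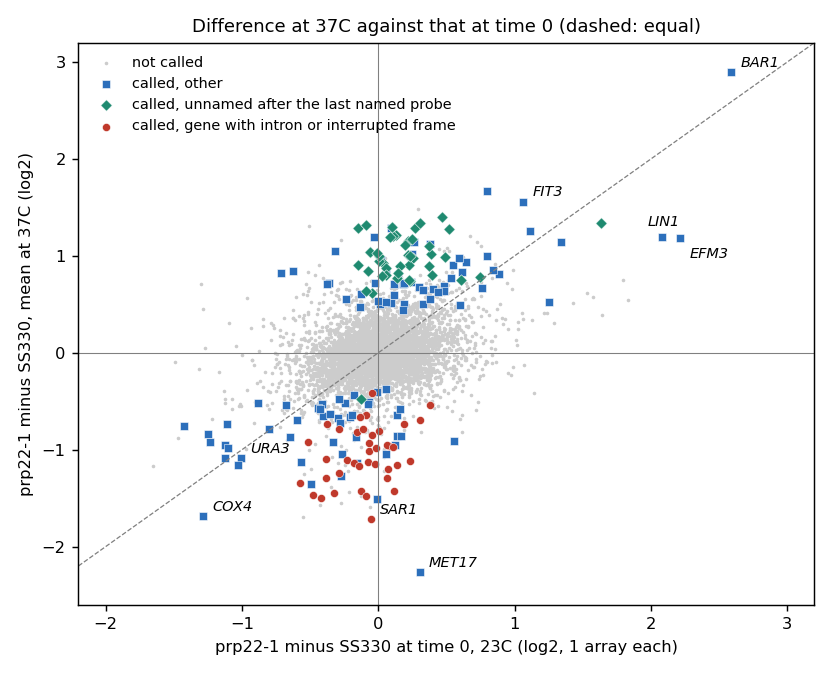
Mean difference between prp22-1 and SS330 at 37C (log2, vertical axis) against the difference at time 0 (log2, horizontal axis, 1 array per strain); each point is 1 probe, coloured and larger where called, and the dashed line marks equal differences. Called genes in the intron lists or with interrupted frames (circles) lie between -0.58 and 0.38 on the horizontal axis. BAR1, EFM3, LIN1, COX4 and URA3 had differences of at least 1 in size at time 0.

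The differences at 37C were set beside those at time 0. A difference was taken as present at time 0 when it had the same sign there and at least 0.5 of the size at 37C, which 43.9% of 5237 probes with a time 0 value met. Among called genes in the intron lists or with an interrupted frame it was 2 of 40, QCR10 (-0.52 at time 0) and DTD1 (-0.38). Among the other named genes that fell it was 22 of 43, and among named genes that rose 19 of 46. In the test of the difference at 37C minus that at 23C, 0 of 5237 probes were called in limma (0%), and 128 had an unadjusted p under 0.05. Each strain has 1 array at time 0, so a difference there has no replicate. The spread of differences over probes was 0.32 (SD) at time 0, then 0.35, 0.56, 0.39, 0.43 and 0.60 in the order of time.

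Several respiratory and biosynthetic genes outside the intron lists were lower before and after the shift. A length from start to stop does not show an intron before the start codon, so these genes may still have 1. COX4, for a subunit of cytochrome c oxidase, had -0.48 in prp22-1 and 0.80 in SS330 at time 0. At 37C it had -0.52, -1.62, -1.18, -0.70 and -0.62 in prp22-1, against 1.11, 0.76, 0.63, 0.57 and 0.71 in SS330. The strains did not overlap, and the difference was -1.69 ± 0.25 (SE, adjusted p = 0.00132). COX12 of the same enzyme had a mean difference of -0.74 at 37C, with -1.11 at time 0 and -0.28 at 120 min. NDE1, for a mitochondrial NADH dehydrogenase, had -0.63, -0.39, 0.64, 0.60 and 0.72 in prp22-1, against 0.70, 1.14, 1.08, 0.79 and 1.00 in SS330, and a mean difference of -0.75. Its difference was -1.43 at time 0 and -0.18 and -0.28 at 60 and 120 min, so the strains were closest late in the course. ATP7 of the ATP synthase fell by 0.57 and PET9, the main ADP/ATP carrier gene, by 1.08 (time 0 -1.12). In the list of respiration and citrate cycle genes 5 of 48 fell, QCR10 among them, and 0 rose (17 lower and 1 higher at an unadjusted p under 0.05 in limma). ATP7 lost its call without 9 of the 10 arrays at 37C in turn and NDE1 without 6. COX12 lost it without 2 and QCR10 without 1, and COX4 kept it. The list's median level was already -0.16 in prp22-1, against 0.27 in SS330, at time 0. CYC1, for cytochrome c, had the lowest difference of all named genes at time 0 (-1.65) and did not pass at 37C (-1.17 ± 0.37, SE, adjusted p = 0.1).

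Of 53 amino acid biosynthesis genes 5 fell and 0 rose (16 lower and 0 higher at an unadjusted p under 0.05 in limma). GDH1, for the glutamate dehydrogenase of ammonia assimilation, had -0.72, -0.95, -0.90, -1.73 and -1.99 in prp22-1, against 0.35, 0.01, -0.44, -0.51 and 0.08 in SS330 (-1.16 ± 0.20, SE, adjusted p = 0.00497). The strains did not overlap, and its difference at time 0 was -1.03. HIS4 (-0.83) and LYS9 (-0.99) had differences of -1.25 and -1.10 at time 0. The branched-chain gene ILV3 (-0.95) and the arginine gene CPA1 (-0.86) had 0.12 and 0.17 there. HIS4 lost its call without 7 of the 10 arrays at 37C in turn, LYS9 without 6 and ILV3 without 4. GDH1 and CPA1 kept theirs. MET17, for the enzyme that joins sulfide to O-acetylhomoserine, had -0.32, no value, -0.69, -0.58 and -0.74 in prp22-1, against no value, 1.03, 1.93, 1.33 and 1.27 in SS330. It did not overlap and had the lowest difference of all probes (-2.26 ± 0.34, SE, adjusted p = 0.00304), with 0.30 at time 0, although only 3 of the times at 37C have values in both strains. MUP1, the high-affinity methionine permease gene, fell by 1.14 (adjusted p = 0.00047) with no overlap and a difference of -0.16 at time 0. With MET22 (-0.53), which removes a by-product of sulfate assimilation, 3 of 24 genes of the sulfur and methionine list fell and 0 rose (7 lower and 1 higher at an unadjusted p under 0.05 in limma). MET22 lost its call without 8 of the 10 arrays in turn, and MET17 and MUP1 kept theirs. In purine synthesis 2 of 18 genes fell and 0 rose (7 lower and 0 higher at an unadjusted p under 0.05). They were ADE12 (-0.95, and -1.12 at time 0) and ADE1 (-0.65, and -0.41 at time 0). ADE1 lost its call without each of the 10 arrays in turn, and ADE12 kept it.

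Of 8 tested genes in use as markers in yeast strains, MET17 and URA3 fell and 0 rose (5 lower and 0 higher at an unadjusted p under 0.05 in limma). The labels give no genotype at these loci. URA3 of uracil synthesis had -0.77, -0.50, -1.13, -0.26 and -0.81 in prp22-1, against 0.23, 0.08, 0.41, 0.56 and 0.70 in SS330. The strains did not overlap (-1.09 ± 0.16, SE, adjusted p = 0.00089), and the difference at time 0 was -1.005. LYS2 had -0.88 ± 0.24 (SE), which missed the threshold (adjusted p = 0.0539), and -1.47 at time 0. The other markers HIS3 (-0.01), LEU2 (-0.35), TRP1 (-0.04), ADE2 (-0.64) and TYR1 (0.03) did not pass.

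In the phosphate list VTC3, VTC4, SPL2 and PHO85 fell, and 17 of 21 tested genes were not called. VTC3 and VTC4 encode subunits of the vacuolar complex that makes polyphosphate. VTC3 had -3.05, -3.26, -2.92, -3.24 and -3.03 in prp22-1, against -2.21, -2.28, -2.06, -2.31 and -0.28 in SS330, where the 120 min value stood apart from the other 4. The difference was -1.27 ± 0.27 (SE, adjusted p = 0.0131). VTC4 had -2.06, -1.95, -2.09, -2.34 and -1.88 in prp22-1, against -1.14, -1.51, -0.93, -1.09 and -1.29 in SS330 (-0.87 ± 0.17, SE, adjusted p = 0.00778), with no overlap and -0.65 at time 0. SPL2, which acts on phosphate transport, fell by 0.86, while the transporter gene PHO84 had -0.08 and VTC1, another VTC gene, -0.06, neither passing. PHO85 has an intron. Of the 21 genes 4 fell and 0 rose (8 lower and 0 higher at an unadjusted p under 0.05 in limma). Of 32 genes of the G1/S list 4 fell and 0 rose (9 lower and 0 higher at an unadjusted p under 0.05 in limma). They were RFA2, named above, POL30 for the sliding clamp PCNA (-1.13 ± 0.26, SE, adjusted p = 0.0221), ELO1 (-0.92), for a fatty acid elongase, and TOS4 (-0.70). POL30, ELO1 and TOS4 had differences of -0.57, -1.23 and -0.60 at time 0 and met the rule for presence there. RFA2 had -0.38 and did not.

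Other processes had few or no calls. Over all 5487 tested probes 512 were higher and 477 lower at an unadjusted p under 0.05 in limma, and 2888 had a difference below 0. Of 105 ribosome biogenesis probes 1 fell (UTP13, -0.58) and 0 rose, with 12 lower and 1 higher at an unadjusted p under 0.05. Of 63 probes of mitochondrial ribosomal proteins 1 fell (YML6, -0.41), with 12 lower and 0 higher at an unadjusted p under 0.05 and 52 below 0. YML6 lost its call without 9 of the 10 arrays in turn. Of 38 probes of translation factors EFB1 fell, with 3 lower and 0 higher at an unadjusted p under 0.05. In the cell wall list of 44, ROM2 rose and EXG1, for a glucanase, fell (-0.65), with 12 higher and 3 lower at an unadjusted p under 0.05. Glycolysis (26 probes), the proteasome (38), ergosterol synthesis (21), hexose transport (19) and the subunits and initiation factors of RNA polymerases I and III (32) gave 0 calls in limma. At an unadjusted p under 0.05 these had 1 higher and 0 lower, 0 higher and 1 lower, 0 higher and 3 lower, 1 higher and 1 lower, and 0 and 0, in that order.

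On the other side, genes for iron-binding mannoproteins of the cell wall were higher in prp22-1. FIT3 had 1.97, 2.19, 1.48, 1.21 and 0.92 in prp22-1, against 0.58, 0.47, -0.19, -0.40 and -0.48 in SS330. It was higher in prp22-1 at each time with no overlap, by 1.56 ± 0.13 (SE, adjusted p = 9.22e-06), the smallest adjusted p of all probes. FIT2 had 2.03, 2.77, 2.07, no value and 0.49 in prp22-1, against 0.54, 0.42, 0.10, -0.22 and -0.28 in SS330 (1.67 ± 0.30, SE, adjusted p = 0.00727), and only its 120 min value fell into the range of SS330. FIT1 rose by 1.25, and the differences at time 0 were 1.11 for FIT1, 0.80 for FIT2 and 1.06 for FIT3. AFT1, the activator of the iron regulon, rose by 0.50 (adjusted p = 0.0312), with a difference of 0.01 at time 0, and FRE5, related to ferric reductases, by 0.55. AFT1 lost its call without 7 of the 10 arrays in turn, and the other 4 kept it without any 1. Thus 5 of 31 iron and copper genes rose and 0 fell (7 higher and 2 lower at an unadjusted p under 0.05 in limma). FET3 (0.25, adjusted p = 0.413) and FTR1 (-0.14, adjusted p = 0.709), of the high-affinity iron uptake system under the same activator, did not pass.

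BAR1, for the secreted protease that breaks down alpha factor, had the highest difference of all probes. It had 3.79, no value, no value, 2.06 and 2.02 in prp22-1, against -0.18, -0.25, -0.41, -0.05 and -0.41 in SS330. The difference was 2.90 ± 0.28 (SE, adjusted p = 0.000163) and 2.59 at time 0. Against the mean of prp17-1 and prp17 null BAR1 was higher by 2.83 (adjusted p = 5.11e-05). Other genes expressed in a cells did not pass, with STE2 at 0.35 ± 0.51 (SE, adjusted p = 0.769), STE6 at 0.23, AGA2 at 0.05 and ASG7 at -0.29. STE2, for the alpha factor receptor, had 2.22, 2.23, 2.001, 1.95 and 1.61 in prp22-1, against 2.05, 1.87, 1.21, 1.73 and 1.39 in SS330. MF(ALPHA)2, expressed in alpha cells, was between -5.05 and -4.40 in prp22-1 and between -4.66 and -3.72 in SS330 at 37C. MFA1, MFA2, STE3, SAG1 and MF(ALPHA)1 had too few values to be tested.

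A group of the rises had been larger at time 0. EFM3, for a methyltransferase of elongation factor 2, had 1.79 in prp22-1 and -0.42 in SS330 at time 0. At 37C it had 1.31, no value, 0.37, 0.66 and 0.18 in prp22-1, against -0.57, -0.53, -0.59, -0.52 and -0.38 in SS330 (1.18 ± 0.22, SE, adjusted p = 0.00777). LIN1, whose protein associates with the U5 snRNP, had a difference of 2.08 at time 0 and 1.20 ± 0.16 at 37C (SE, adjusted p = 0.00047), and ZUO1, for a chaperone on the ribosome, 1.34 at time 0 and 1.15 ± 0.20 at 37C (SE, adjusted p = 0.00561). None of the 3 overlapped between the strains. ATF2 (1.65), TIR2 (1.83) and BIO5 (1.80) completed the 6 highest differences at time 0 with BAR1, EFM3 and LIN1, and did not pass at 37C (0.39, 0.54 and 0.76).

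Other rises were not present at time 0 by the rule above. YPK2, for a protein kinase downstream of TORC2, had 1.05, 1.32, 1.55, 1.88 and 2.64 in prp22-1, against 0.32, 0.65, 0.60, 0.75 and 0.86 in SS330 (1.05 ± 0.22, SE, adjusted p = 0.0124), and -0.32 at time 0. BAG7, for a GTPase-activating protein of Rho1, had 1.24, no value, 1.53, 1.70 and 2.58 in prp22-1, against 0.22, 0.53, 0.70, 0.52 and 0.72 in SS330 (1.19 ± 0.16, SE, adjusted p = 0.0011). Neither overlapped between the strains, and both were highest in prp22-1 at 120 min. YPS1, for an aspartyl protease anchored at the cell surface, rose by 1.15, the polyamine transporter gene TPO2 by 1.02 and CMK2, for a calmodulin-dependent kinase, by 0.85. Their differences at time 0 were 0.26, 0.24 and -0.62. PMC1, for the vacuolar calcium pump, rose by 0.60, COM2 by 0.84, the cell cycle inhibitor gene CIP1 by 0.83 and CPP1 by 0.81. At time 0 CIP1 had a difference of -0.71, of the opposite sign, and PMC1, COM2 and CPP1 had 0.115, 0.055 and 0.144.

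A last set of rises met the rule at time 0. PRM7 (1.00), the chromatin remodeller gene CHD1 (0.98), the bromodomain gene BDF2 (0.90), the drug transporter gene YOR1 (0.77) and ROM2 (0.66), for an activator of Rho1, rose too. These 5 had differences of 0.80, 0.59, 0.55, 0.54 and 0.40 at time 0.

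The unnamed probes after the last named one held 44 of the 99 rises. Of 237 such probes 163 were tested, and 27% of these rose and 1 fell, beside 1.8% higher and 1.68% lower over all tested probes. What they measure is not given in the sources used here. Over the 44 called, the median level was 0.34, 1.34, 0.71, 0.82 and 0.80 in prp22-1, against -0.58, -0.21, -0.06, -0.17 and -0.16 in SS330. At time 0 it was -0.17 in prp22-1 and -0.30 in SS330. Their differences ran from 0.62 to 1.40 with a median of 1.00, and 3 of the 43 with a time 0 value met the rule for presence there. Over all 163 the median difference was 0.17. Without the SS330 array at 60 min 29 were called.

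The values of prp22-1 were last set against the mean of prp17-1 and prp17 null at 37C, a contrast that leaves out SS330 but uses the same prp22-1 arrays. Over all probes 11.5% were higher in prp22-1 and 7.29% lower. Of the 99 probes of non-ribosomal genes with introns 8 were higher and 20 lower. ERD2 was lower in prp22-1 than in the prp17 strains, with a difference of -1.23 (adjusted p = 1.75e-05), as were CPT1 with -0.91 (adjusted p = 0.000359) and SEC17 with -0.81 (adjusted p = 0.000294). SAR1 (0.19, adjusted p = 0.695), UBC4 (-0.03, adjusted p = 0.899) and STO1 (0.13, adjusted p = 0.412) did not pass in this contrast. FIT3 was higher by 0.88 (adjusted p = 0.00012), PRM7 by 1.53 (adjusted p = 2.31e-05) and EFM3 by 1.67 (adjusted p = 0.000133), while URA3 was lower with -1.27 (adjusted p = 3.01e-05) and COX4 did not pass (-0.54, adjusted p = 0.108). Of the 163 unnamed probes at the end of the array 58 were higher and 14 lower. The set of prp22-1 arrays is shared by this contrast and the one against SS330, so the 2 sets of values are not independent.

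Of the 133 named probes called between prp22-1 and SS330, 62 kept their call without any 1 of the 10 arrays at 37C, and 71 lost it without at least 1. SAR1, CPT1, YOP1, PFY1, ERD2, SEC17, ARP2, STO1, PBA1, ARF2, YBR090C, PRM7, FIT3 and BAR1, 14 in all, kept it in each of 23 other settings in which they could be tested. TUB1, COF1, ACT1, SEC27, RFA2, RPO26, RPS29B, PMI40, POL30, RPL32, TPO2, CMK2, YRO2, ROM2, ADE1, AFT1 and YML6 are among those that lost it without at least 1 array.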

How the data were processed

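The authors deposited log2 ratios of the RNA and genomic DNA channels for 6350 probes on 24 arrays, with the base of 2 assumed here. No label names the log base or the channel on top. RNA over genomic DNA was inferred from the heat shock genes, as given above. How background was corrected and values were normalized or filtered is not stated, the baseline of a probe is unknown, and levels are not compared between probes. The number of arrays limits the precision. GEO's platform annotation names 1 gene for 5527 probes and none for 823.

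Each array was centred on its median. A probe was tested with a value on at least 20 of 24 arrays and on at least 3 of the 5 that each strain has at 37C, leaving 5487 (4871 named). Linear models with limma 3.58.1 in R 4.3.3 used all 24 arrays, a factor of strain and temperature, time as a block (the pairing is the labels' time point) with Benjamini-Hochberg adjusted p-values across the tested set. The script was tested on simulated data. Python 3.11.15, pandas 2.3.3, numpy 2.4.6 and matplotlib 3.10.9 made tables and figures.

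The members and gene lists were chosen with earlier results of these data known. Lists come from textbook knowledge and were described by counts and medians, with no set test. Intron lists were set beside gene lengths in the RefSeq R64 table, where 96.3% of 6021 protein-coding genes have a multiple of 3. Of the list genes 57 of 92 ribosomal and 78 of 122 other genes with introns have not, and 0 of 41 ribosomal genes without. A planned list of interrupted coding regions from protein lengths was not made, and no sequence is shown.

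Genes were named by a rule: the 12 largest called rises and 12 largest called falls with values on all 10 arrays and 1 sign at all 5 times, up to 6 called changes each way for late minus early and 37C minus 23C, 3 genes of each list with the smallest p, the 6 highest and lowest at time 0, and PRP22, CDC40, mating and marker genes. This named 141 probes. Other called genes, and 9 genes set beside them, were chosen after their values were seen, as were both intronless comparison lists and the group of unnamed probes at the end of the array. Alternatives were other centring, quantile normalization, probe filters, thresholds and variance priors, no block, fewer strains, fewer times, and each array left out.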

Additional observations from a re-analysis of the deposited data

Results flagged for a closer look

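In 112 sets of 5 values, the paired differences of called genes or the arrays of a strain, 7 held a value far from the other 4; chance flags about 1 in 20. At 5 min SAR1 had a difference of -0.94, short of the other times (-0.94, -1.93, -1.81, -1.95 and -1.96 in order), and ECM9 one of -1.14, beyond them (-1.14, -0.45, -0.61, -0.53 and -0.57). VTC3 stood apart at 120 min with -2.74, where SS330 had -0.28 and prp22-1 -3.03. STO1 at 120 min had -0.67, the smallest of its 5, and CMK2 at 120 min 1.83, the largest. CHD1 had 1.82 at 15 min. The prp22-1 array at 15 min held a value for 77.3% of probes, below the other 4 of that strain at 37C. MET30 differed between early and late times, with a change of 1.36 by the test of that change.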

How the results depend on the processing

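Calls between prp22-1 and SS330 at 37C (191), non-ribosomal genes with introns among the falls (37) and unnamed probes at the end of the array among the rises (44) depended on several choices. Quantile normalization gave 418 (210 higher, 208 lower), with 102 for late minus early and 177 for 37C minus 23C. Probes with values on all 24 arrays gave 79, 21 and 7, with 10 for late minus early, on fewer probes. An adjusted p under 0.01 gave 84, 18 and 28, and the 3 early times alone 59, 17 and 11; the 2 late times alone gave 24 unnamed probes. Leaving out the prp17 null arrays gave 326. Late minus early gave 7 calls with trend and robust settings, and 0 at an adjusted p under 0.01, with only the 2 strains, without the prp17 null arrays or without 15 min. Without the block that pairs arrays by time (no replicate block) 136 were called, 71 higher and 65 lower, and late minus early gave 5. The cause of these shifts was not tested. Leaving out 1 array at a time gave 100 to 217 calls, 20 to 42 intron genes, 29 to 49 unnamed probes, 0 to 116 for late minus early and 0 to 0 for 37C minus 23C. Of the 133 named calls 0 turned round in any setting. HIS3, not called, had 0.47 under quantile normalization (adjusted p = 0.0281), against -0.01. Signal over background was not used here, so what dim probes limit cannot be given.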
